A study of Mus musculus with 15 samples.

Results

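Cadherins and protocadherins are calcium-dependent adhesion molecules of the cell surface, and the genes described here are all rows of the deposited table whose symbol is Cdh followed by a number or begins with Pcdh. The rule found 83 genes among the 15569 of the table, of which 29 are cadherins and non-clustered protocadherins and 54 belong to the clustered protocadherins. The clustered genes comprise 11 of the Pcdha, 21 of the Pcdhb and 22 of the Pcdhg cluster. The others are 3 type I and 13 type II classical cadherins, Cdh13, 4 delta-1 and 5 delta-2 protocadherins, and 3 further non-clustered protocadherins. All 83 passed the filter on low values, and none was at 0 in any library. Of the members annotated as protein-coding genes, 9 (Cdh1, Cdh3, Cdh16, Cdh17, Cdh23, Cdh26, Pcdha4, Pcdha8 and Pcdhb1) are not analysed here.

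Classical cadherins bind the same or a related cadherin on the neighbouring cell and are tied through beta-catenin, plakoglobin and alpha-catenin to actin. Clustered protocadherins are expressed in different combinations by single neurons, through promoter choice that depends on CTCF and cohesin, and are known for self-recognition of neurites. Delta-protocadherins engage the actin regulators of the WAVE complex and protein phosphatase 1, and in brain they are known for axon outgrowth, sorting of axons and synapse formation.

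Striatum, through which the cortex addresses the basal ganglia, was taken from C57Bl/6J mouse pups at postnatal day 14, and RNA sequencing measured its transcripts. The dams had been exposed to aerosols during gestation. The 15 libraries form 4 groups: 3 after paraquat, a redox-cycling herbicide, 4 after titanium dioxide (TiO2) nanoparticles, 4 after the mixture of both and 4 controls whose treatment is given as untreated. The labels name no dose, dam, litter or sex and do not say whether separate animals gave them. A p-value below therefore measures how these samples scatter, and that scatter may be technical.

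The deposited values are read counts scaled by each library's size factor, called normalised reads below, and depth lay between 8690925 and 14207513 reads per library. All 14 markers of medium spiny neurons, the principal neurons of striatum, were detected in all groups. Xist, the RNA of the inactive X chromosome, was high in 1 of 3 paraquat, 2 of 4 TiO2, 2 of 4 mixture and 2 of 4 control libraries. The correlation across genes of a library's deviation from the mean with transcript GC content ran from 0.0245 to 0.331 in paraquat, −0.112 to 0.45 in TiO2, −0.275 to 0.0874 in mixture and −0.383 to 0.0548 in control libraries. Genes are not independent replicates. The ranges overlap between groups, those of paraquat and control only from 0.0245 to 0.0548. Mitochondrial transcripts held 16.8 to 18.5% of the signal in paraquat, 16.2 to 20.6% in TiO2, 19.1 to 21% in mixture and 19.7 to 21.8% in control libraries. The paraquat range thus lay below those of mixture and control, and its bearing on the members was not tested. Depth covers counting error only, as reads carry no molecular identifiers.

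The promoters of Pcdh9, Cdh20 and Pcdh19 are shown. After paraquat and after TiO2 these genes lay above all of the same control libraries. So did Pcdh1 and Cdh19, whose promoters are not shown. Each sequence is the 250 bases before the gene's start, written 5′ to 3′ along the gene's own strand, from RefSeq on GRCm38.p6. Capitals mark the CCAAT box (CCAAT, or ATTGG on the other strand) and the GC box (CCGCCC, or its reverse complement).
The Pcdh9 promoter lies at chr14:93890680-93890929 on the minus strand, the Cdh20 promoter at chr1:104768270-104768519 on the plus strand and the Pcdh19 promoter at chrX:133688994-133689243 on the minus strand.
Pcdh9: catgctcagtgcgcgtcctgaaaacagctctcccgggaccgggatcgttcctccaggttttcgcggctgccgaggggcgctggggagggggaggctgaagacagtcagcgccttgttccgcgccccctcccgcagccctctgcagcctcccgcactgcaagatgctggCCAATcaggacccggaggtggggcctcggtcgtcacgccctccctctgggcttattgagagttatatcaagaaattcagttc
Cdh20: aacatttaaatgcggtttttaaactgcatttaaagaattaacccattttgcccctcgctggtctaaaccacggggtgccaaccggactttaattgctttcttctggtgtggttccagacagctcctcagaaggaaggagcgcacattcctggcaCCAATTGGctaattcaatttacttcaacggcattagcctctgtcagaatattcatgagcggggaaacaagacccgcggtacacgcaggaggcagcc
Pcdh19: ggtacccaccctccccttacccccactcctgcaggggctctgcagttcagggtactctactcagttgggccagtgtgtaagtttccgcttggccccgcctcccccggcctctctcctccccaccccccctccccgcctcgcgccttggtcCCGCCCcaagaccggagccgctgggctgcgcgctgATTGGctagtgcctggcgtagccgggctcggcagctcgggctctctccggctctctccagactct

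Pcdh9 had 1 CCAAT box and 18 CpG dinucleotides, Cdh20 had 2 CCAAT boxes on opposite strands that overlap each other and 10 CpG, and Pcdh19 had 1 CCAAT box, 1 GC box and 16 CpG. The GC content was 63.6% for Pcdh9, 47.6% for Cdh20 and 69.2% for Pcdh19. The set of RefSeq promoters used here held 20 of the 83 members, and the promoters of the others were not looked at. Within these windows, searched on both strands, 13 of 20 members held CCAAT, against 34.5% of 27025 promoters, and 9 of 20 held CCGCCC, against 32.9%. The TATA box TATAAA was found in 2 of 20 members and 13% of all promoters. The cAMP response element TGACGTCA, the AP-1 site TGANTCA and the EGR1 site GCGTGGGCG were in none of the 20, against 1.62%, 6.87% and 0.54% of all promoters. The median CpG number was 10.5 in member promoters and 6 in all promoters. These letters describe the windows and say nothing about binding.

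Cdh13, or T-cadherin, which is held in the membrane by a lipid anchor, was the most abundant non-clustered member in P14 striatum. Per kilobase of exon it reached 439 ± 60.3 normalised reads (SD over 15 libraries). Pcdhgc3, a C-type gamma-protocadherin, followed with 342 ± 48 and Pcdh10, a delta-2 protocadherin that binds the WAVE complex subunit Nckap1, with 193 ± 21 normalised reads per kb. The ranges over libraries were 340 to 542 for Cdh13 and 285 to 445 for Pcdhgc3, which overlap, while Pcdh10, at 157 to 230, lay below both. The place of Pcdhg genes in this order depends on shared exons. With all reads of a gene divided by its unshared exon length alone, Pcdhgc3 came to 556, above Cdh13 at 439. Pcdhgc5 came to 301 in this way, above Pcdh10 at 193 normalised reads per kb. These values are too high if reads of shared exons are in the counts, so the order is uncertain. Cdh8, a type II cadherin, and Pcdhgc5 both averaged 182 and Pcdh9 175 normalised reads per kb, and their spreads overlap with that of Pcdh10. Pcdh17, a delta-2 protocadherin of corticobasal ganglia synapses, averaged 144, Cdh11 116, Pcdh7 108, Pcdh1 95.2 and Cdh2, or N-cadherin, 93.4 normalised reads per kb. The 10 highest members per kb of all exon held 62.9% of the normalised reads of all 83, and Cdh13 alone 16.5%.

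The lowest were Pcdha1 at 2.35 ± 1.3, Pcdha7 at 2.37 ± 0.961 and Pcdhgb8 at 3.67 ± 1.08 normalised reads per kb (SD, n = 15), levels that do not differ beyond their spread. With all their reads divided by unshared exon length alone these were at 5.05, 5.91 and 6.77. Cdh15, a type I cadherin of muscle, was then lowest at 4.57 normalised reads per kb. Pcdhgb8 is annotated as a polymorphic pseudogene. Within the Pcdha cluster the C-type gene Pcdhac2 held 46.8% of the signal, on average over libraries. Pcdhgc3 held 30.5% and Pcdhgc5 22.6% of the Pcdhg signal, whereas the Pcdhb signal was spread more evenly, with Pcdhb18 highest at 11.6%. Genes of the Pcdha cluster share 48.6 to 59.9% of their exonic length, and genes of the Pcdhg cluster 31.5 to 66.8%, with other genes of the same cluster. How reads of these shared exons were assigned is not given in the sources used here, so the levels of single Pcdha and Pcdhg genes are uncertain, and near-identical copies make those of Pcdhb genes uncertain too.

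**Figure D1:**
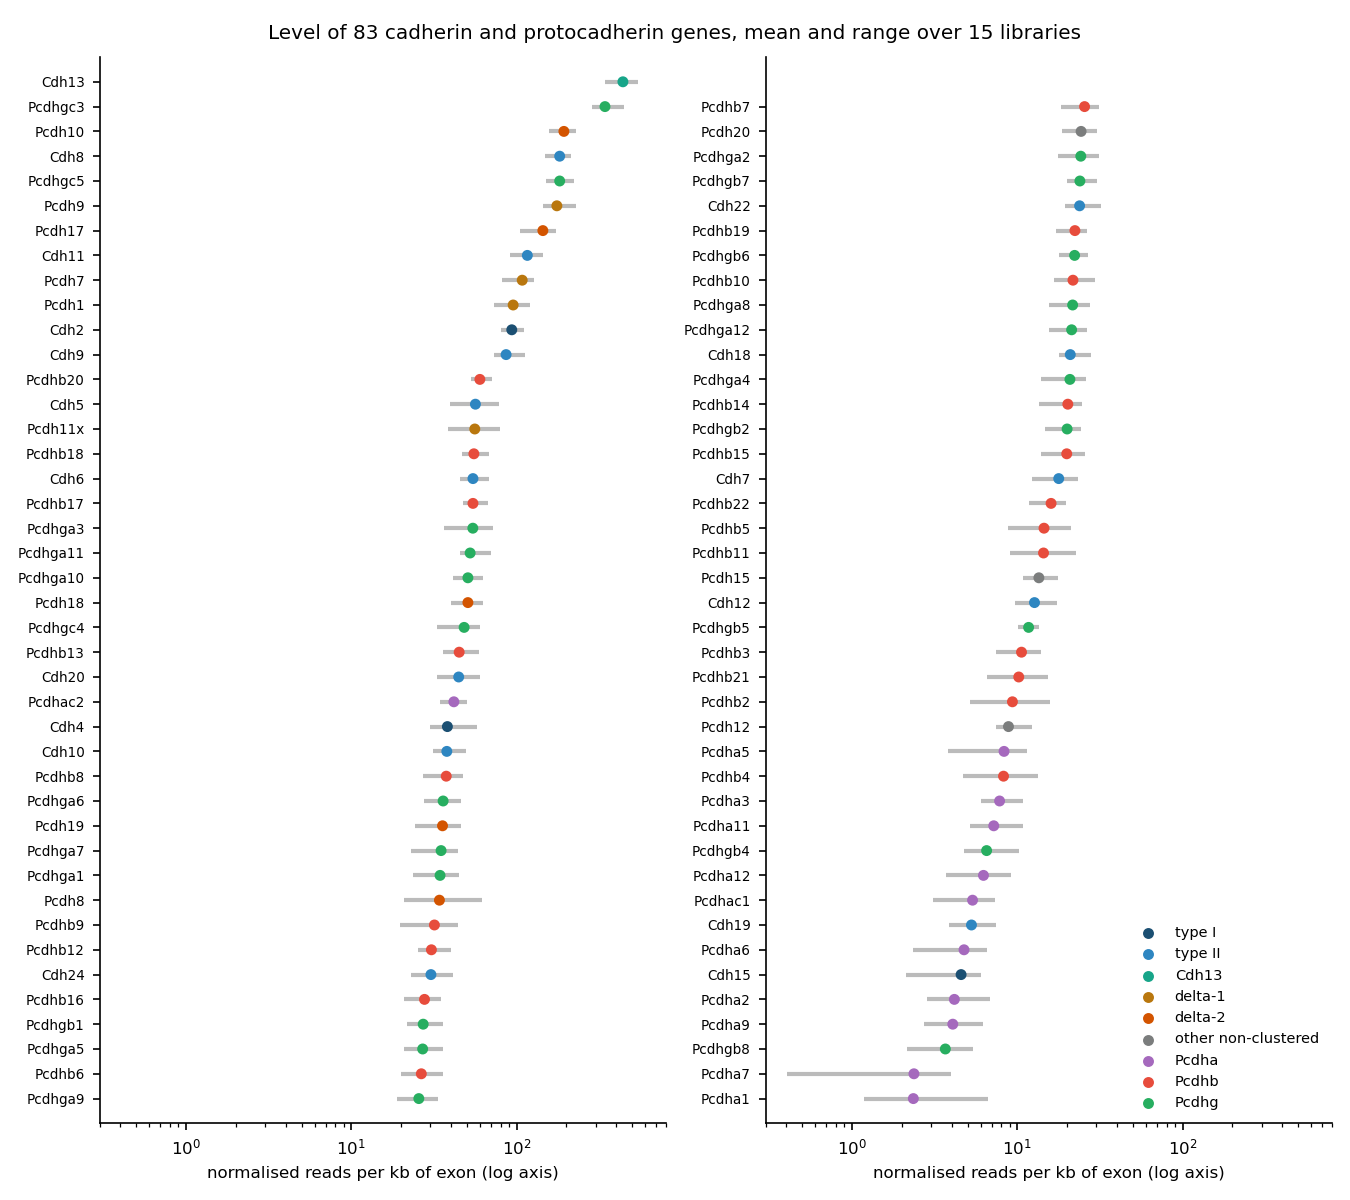
Level of each of the 83 genes in normalised reads per kb of exon (log axis); points are means over all 15 libraries, bars the range, and colours the subfamily. Cdh13 and Pcdhgc3 are at 439 and 342, and Pcdha1 is at 2.35. The length includes exons shared within a cluster. With all reads divided by unshared length alone, Pcdhgc3 is at 556 and Pcdha1 at 5.05, too high if reads of shared exons were counted.

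The first comparison, paraquat against control, asked which adhesion genes differ in pups of dams that inhaled paraquat. Among the 83 members 7 rose and 2 fell at an adjusted p under 0.05 (limma, Benjamini-Hochberg over 15556 genes). The 7 higher members are 8.43% of the 83, against 6.34% of all genes tested, the 2 lower members 2.41%, against 4.06%, and both directions together 10.8%, against 10.4%. All 7 that rose are non-clustered, 24.1% of those 29, and they include 3 type II cadherins (Cdh20, Cdh19 and Cdh24), 2 of 4 delta-1 protocadherins (Pcdh9 and Pcdh1) and 2 of 5 delta-2 protocadherins (Pcdh19 and Pcdh8). Of the 54 clustered genes 1 fell, Pcdhb8, and none rose. By ranges, 7 members (8.43%, against 11% of all genes) had all paraquat libraries above all controls, and 5 (6.02%, against 10.3%) had them below. The median log2 fold change was 0.15 over the non-clustered genes, −0.00 over the clustered genes and −0.01 over all genes tested.

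Among the delta-1 protocadherins, Pcdh9 (ENSMUSG00000055421.8, chr14:93013410-93890679, minus strand) had 1340, 1556 and 1412 normalised reads in the paraquat libraries, against 1078, 1071, 979 and 1011 in controls. Each paraquat library exceeded each control library. The log2 fold change was 0.47 ± 0.08 (SE), with an adjusted p of 0.000778 from limma, and the call held in all alternatives and without any single library. Pcdh1 (ENSMUSG00000051375.15), an adhesion molecule also known from airway epithelium, had 1043, 834 and 1055 normalised reads after paraquat, against 640, 705, 794 and 712 in controls. Here too the groups were apart, with paraquat 2 closest to the controls. The log2 fold change was 0.45 ± 0.09, with an adjusted p of 0.00394 from limma. Once the trend with GC content was removed, it was 0.25 with a limma adjusted p of 0.0525. Pcdh7, which binds protein phosphatase 1, averaged 1224 ± 100 after paraquat and 1031 ± 138 normalised reads in controls (SD, n = 3 and 4). Its log2 fold change of 0.25 ± 0.10 did not pass (limma adjusted p = 0.115). With the GC trend removed Pcdh7 passed, at 0.31 (limma adjusted p = 0.041).

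Of the delta-2 protocadherins, Pcdh19 (ENSMUSG00000051323.16, chrX:133582860-133688987), the gene of a human X-linked epilepsy, whose protein forms a complex with N-cadherin, had 426, 362 and 484 normalised reads after paraquat. Controls had 361, 255, 352 and 289. The groups were apart, but only just, with paraquat 2 next to control 1. Within controls the Xist-high libraries 1 and 3 had more Pcdh19 (361 and 352) than the others (255 and 289). Within the mixture so did libraries 2 and 4 (356 and 417, beside 289 and 337). Within TiO2 the Xist-high libraries 1 and 2 were not higher (401 and 419, beside 427 and 419). Paraquat 2, the Xist-high paraquat library, was the lowest of its group. The log2 fold change was 0.44 ± 0.12 with an adjusted p of 0.0275 from limma, and 0.46 with an adjusted p of 0.0194 with a term for sex, set by Xist. Pcdh8, or arcadlin, an activity-regulated protein that in rat neurons drives internalisation of N-cadherin, had 171, 162 and 281 after paraquat, against 98.4, 94.9, 177 and 131 normalised reads in controls. One library, paraquat 3, was far above the rest, and control 3 lay above the other paraquat libraries. Pcdh8 had a log2 fold change of 0.70 ± 0.20 with a limma adjusted p of 0.0343. It was 0.50 (limma adjusted p = 0.242) with the GC trend removed and 0.45, without a call, when paraquat 3 was left out. Pcdh10 at 0.12 ± 0.10 and Pcdh17 at 0.03 ± 0.13 on the log2 scale did not pass.

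Of the type II cadherins, Cdh20 (ENSMUSG00000050840.8, chr1:104768529-104995481) had 201, 207 and 241 normalised reads after paraquat, against 144, 159, 144 and 164 in controls. The groups did not overlap. Its log2 fold change was 0.50 ± 0.12 with a limma adjusted p of 0.0115, which became 0.0702 without paraquat 3. Cdh19, known from glia derived from the neural crest, was low in all libraries, with 31.8, 31.5 and 28.3 after paraquat, against 16.6, 17.5, 17 and 18.7 normalised reads in controls. These groups were clearly apart, and the log2 fold change was 0.77 ± 0.22 with a limma adjusted p of 0.0264. Cdh24, which binds beta-catenin and p120-catenin, had 136, 143 and 120 after paraquat, against 80.8, 83.6, 132 and 80.6 normalised reads in controls, with control 3 among the paraquat values. On the log2 scale Cdh24 rose by 0.52 ± 0.15 with a limma adjusted p of 0.0304, and by 0.30 with an adjusted p of 0.24 when the GC trend was removed.

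Cdh11, a type II cadherin present at excitatory synapses, fell after paraquat. It had 813, 1026 and 884 normalised reads in paraquat libraries, against 1124, 990, 1286 and 1182 in controls, and paraquat 2 lay above control 2. The log2 fold change was −0.34 ± 0.10 with a limma adjusted p of 0.0276. Pcdhb8 (ENSMUSG00000045876.4), a beta-protocadherin, had 103, 120 and 94.2 after paraquat, against 131, 165, 133 and 153 normalised reads in controls, so that each paraquat library was below each control. Its log2 fold change was −0.46 ± 0.14 with a limma adjusted p of 0.0418. With the GC trend removed the log2 fold change was −0.23 for Cdh11 (limma adjusted p = 0.0881) and −0.37 for Pcdhb8 (0.0968).

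Leaving out single libraries ended some of the calls made after paraquat. Without paraquat 3, which is also the deepest library, 2 of the 9 calls were left, and without paraquat 1, 3. Without control 1 or control 4 there were 4. Cdh19 was lost without any one of the paraquat libraries or control 1, and Pcdh19 without paraquat 1, paraquat 3, control 2 or control 4. Cdh11, Cdh24, Pcdh8 and Pcdhb8 were each lost in 5 or 6 of 7 such fits.

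Type I cadherins did not pass in this fit. Cdh2, which joins synaptic membranes, had 840, 893 and 793 normalised reads after paraquat, against 789, 706, 718 and 765 in controls. Its groups were apart by a narrow margin, at a log2 fold change of 0.18 ± 0.08 and a limma adjusted p of 0.182. With the GC trend removed Cdh2 passed, at 0.30 (limma adjusted p = 0.0182). Cdh4, or R-cadherin, varied widely after paraquat, from 221 to 415 normalised reads, against 218 to 322 in controls. Among members that did not pass, the largest log2 fold changes were −0.70 ± 0.29 for Pcdhgb8, 0.55 ± 0.27 for Pcdhb2 and −0.51 ± 0.25 for Pcdha12, all genes at a low level.

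Markers of other cells passed after paraquat, where 6.34% of all genes tested were higher and 4.06% lower. Of 11 oligodendrocyte and myelin genes 9 rose, and their sum was 90495 to 104130 normalised reads after paraquat, 56496 to 88755 after TiO2, 48815 to 84132 after the mixture and 41206 to 61422 in controls. Of 8 oligodendrocyte precursor genes 4 rose after paraquat, and their sum was 8257 to 9983 after paraquat and 6948 to 7627 in controls. Of 8 astrocyte genes 2 rose, with sums of 47622 to 58353 after paraquat and 48058 to 54207 in controls, and of 12 cortical glutamatergic neuron genes 4 rose, with sums of 3400 to 7156 after paraquat and 2440 to 3779 in controls. Of 14 medium spiny neuron genes 5 fell, with sums of 85086 to 93980 after paraquat and 99230 to 108120 in controls. The interneuron gene Sst (0.33) and Igf2 of the meningeal list (1.17 on the log2 scale) rose too, as 1 of 6 and 1 of 5 genes. None of the markers tested was at 0 in any library. Their part in the results on adhesion genes was not tested, and in tissue RNA more cells of a type cannot be told apart from more RNA per cell.

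**Figure D2:**
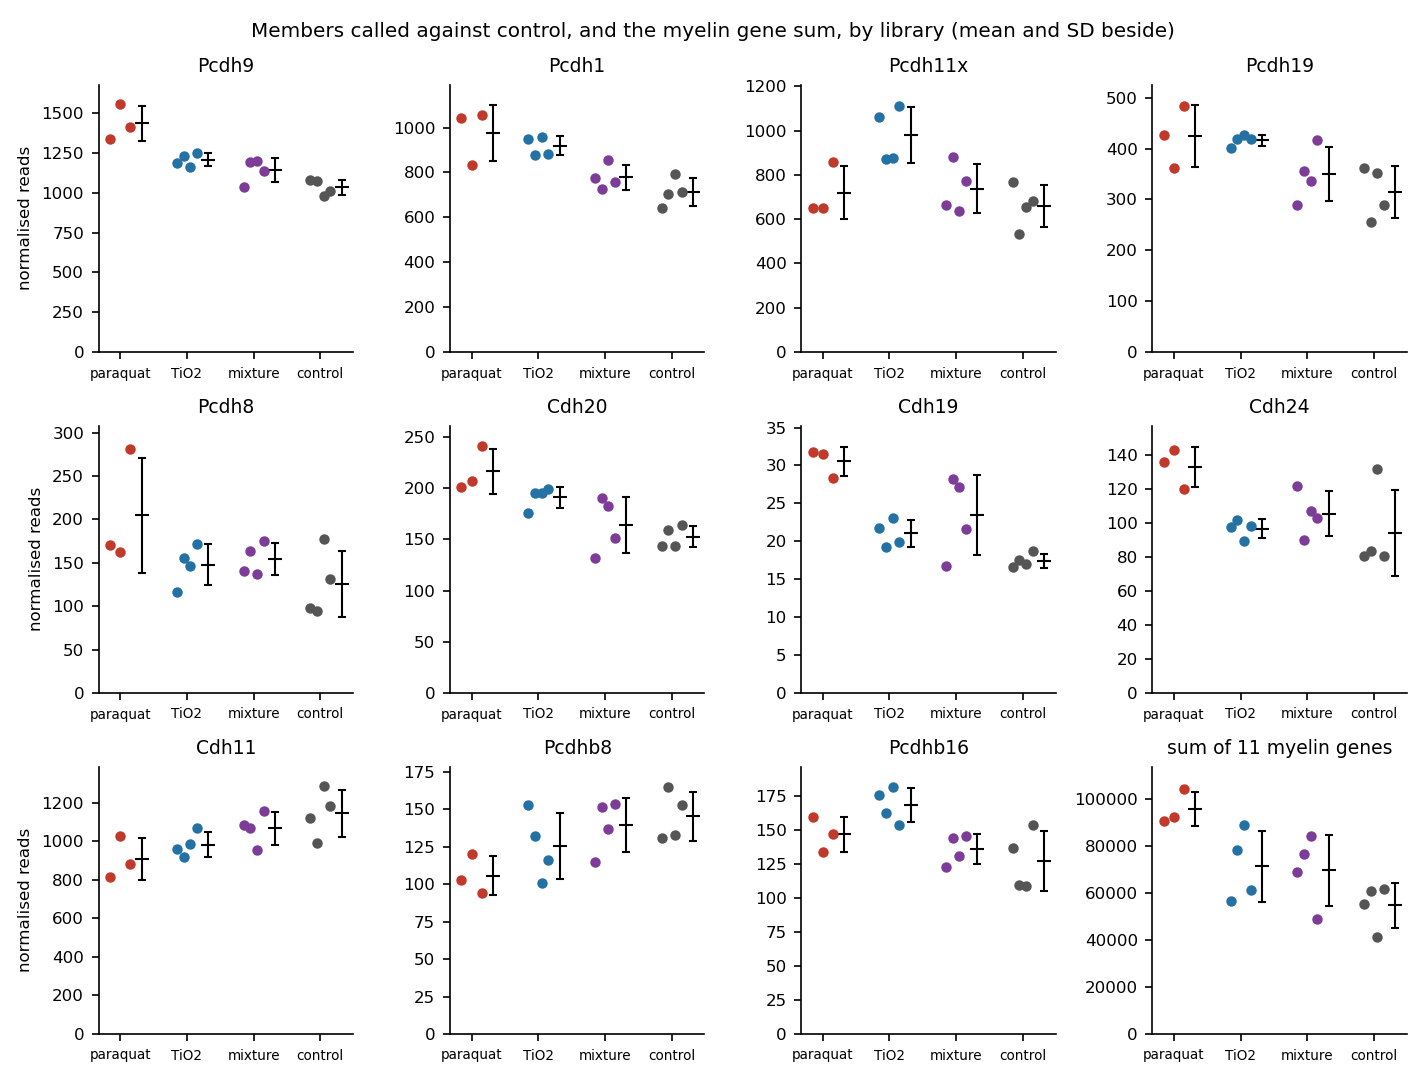
Normalised reads in each library (points), with group mean and SD (bars), for the 11 members called against control and for the sum of 11 myelin genes. Paraquat libraries of Pcdh9 (1340 to 1556) lie above all controls (979 to 1078), TiO2 libraries of Pcdh11x (870 to 1111) above all controls (534 to 767), and the myelin sum is highest after paraquat.

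The second comparison, TiO2 against control, gave 4 calls among the 83 members, all higher. That is 4.82%, against 6.4% of all genes tested in either direction and 4.3% higher; 0 were lower, against 2.1%. They are Pcdh11x and Pcdh1 of the delta-1 group, Pcdh19 of the delta-2 group and Pcdhb16. By ranges, 12 members (14.5%, against 7.51% of all genes tested) had all TiO2 libraries above all control libraries, and 1 (1.2%, against 5.02%) had them below. The median log2 fold change was 0.22 over the non-clustered genes, 0.06 over the clustered genes and −0.01 over all genes tested.

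Pcdh11x (ENSMUSG00000034755.18, chrX:120290259-120910619, plus strand), an X-linked protocadherin with a cytoplasmic motif for protein phosphatase 1, had 1062, 870, 876 and 1111 normalised reads after TiO2, against 767, 534, 657 and 682 in controls. All TiO2 libraries were above all controls. The log2 fold change was 0.57 ± 0.12 with a limma adjusted p of 0.0083, and the call held in all alternatives, a term for sex included (adjusted p = 0.00632). Xist was high in paraquat 2, TiO2 1 and 2, mixture 2 and 4 and control 1 and 3. Of the Pcdh11x values, the Xist-high libraries were the highest 2 of the mixture (881 and 770) and included the highest control (767), while in TiO2 they were 1062 and 870, beside 876 and 1111 in the others. Paraquat libraries had 650, 651 and 857 normalised reads, which overlap those of controls, at a log2 fold change of 0.12 ± 0.13. The difference between paraquat and TiO2 did not pass (−0.45 on the log2 scale), although each paraquat library lay below each TiO2 library.

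Pcdh1 had 949, 880, 960 and 884 normalised reads after TiO2, against 640, 705, 794 and 712 in controls, with no overlap. The log2 fold change was 0.37 ± 0.09 with a limma adjusted p of 0.0111, and 0.22 with an adjusted p of 0.0707 when the GC trend was removed; the call was also lost without control 1. Pcdh19 had 401, 419, 427 and 419 normalised reads after TiO2, close to each other and above the 361, 255, 352 and 289 of controls. Its log2 fold change was 0.42 ± 0.11 with a limma adjusted p of 0.0287, lost without TiO2 2, TiO2 3, control 2 or control 4, and 0.42 with an adjusted p of 0.0213 with the term for sex. Pcdhb16 (ENSMUSG00000047910.6) had 176, 163, 182 and 154 normalised reads after TiO2, against 137, 110, 109 and 154 in controls, where control 4 reached the lowest TiO2 value. On the log2 scale Pcdhb16 rose by 0.41 ± 0.12 with a limma adjusted p of 0.0345, lost in 6 of 8 fits without a library.

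Several abundant members lay above the controls without passing in this fit. Cdh13 had 5316, 5518, 5314 and 6087 normalised reads after TiO2, against 3867, 4872, 4772 and 4535 in controls (log2 fold change 0.30 ± 0.10, limma adjusted p = 0.0824). Pcdh10 had 3250, 3226, 3058 and 3647 after TiO2, against 2908, 2492, 2770 and 2957 in controls (0.24 ± 0.09, limma adjusted p = 0.101). Pcdh9 had 1187, 1229, 1160 and 1251 after TiO2, against the control values above (0.22 ± 0.07, limma adjusted p = 0.0662). In each of these genes the TiO2 and control libraries did not overlap. With the GC trend removed Pcdh10 (limma adjusted p = 0.0191) and Pcdh9 (0.00342) passed. Cdh13 passed with replicate number as a block (limma adjusted p = 0.0483) and with a term for sex (0.0454). Cdh20 averaged 191 ± 10.1 after TiO2 and 153 ± 10.5 in controls (SD, n = 4 each), with a limma adjusted p of 0.0798. The largest changes without a call were 0.56 ± 0.18 for Pcdhb21, 0.51 ± 0.25 for Pcdhb2 and 0.43 ± 0.17 for Pcdha3 on the log2 scale. Pcdhb21 passed with the GC trend removed (limma adjusted p = 0.012). Cdh2, Cdh8, Pcdh15, the protocadherin of hair cell tip links, and Pcdh17 had log2 fold changes between −0.07 and 0.12.

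Some markers of other cells passed after TiO2 as well. Over all genes tested 4.3% were higher and 2.1% lower, so a single call in a short list says little about that list. Of the 11 myelin genes 1 rose, of 8 oligodendrocyte precursor genes 2, of 8 astrocyte genes 3, of 7 microglia genes 1 (Tmem119) and of 12 cortical glutamatergic genes 0, while 2 of 14 medium spiny neuron genes fell. The sum of the precursor genes was 7561 to 9787 after TiO2 and 6948 to 7627 in controls, and that of the astrocyte genes 53483 to 57602 after TiO2 and 48058 to 54207 in controls. Whether they bear on the adhesion genes was not tested. Counts of calls moved with the model: DESeq2 called 7 of the 65 members to which it gave an adjusted p (10.8%, against 10.3% of all such genes), a fit with replicate number as a block 9 (10.8%, against 8.7%), the GC correction 7 (8.43%, against 5.52%) and a term for sex 8 (9.64%, against 7.51%). The members added with DESeq2 were Pcdh9, Pcdhgc3 and Pcdhgc5.

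**Figure D3:**
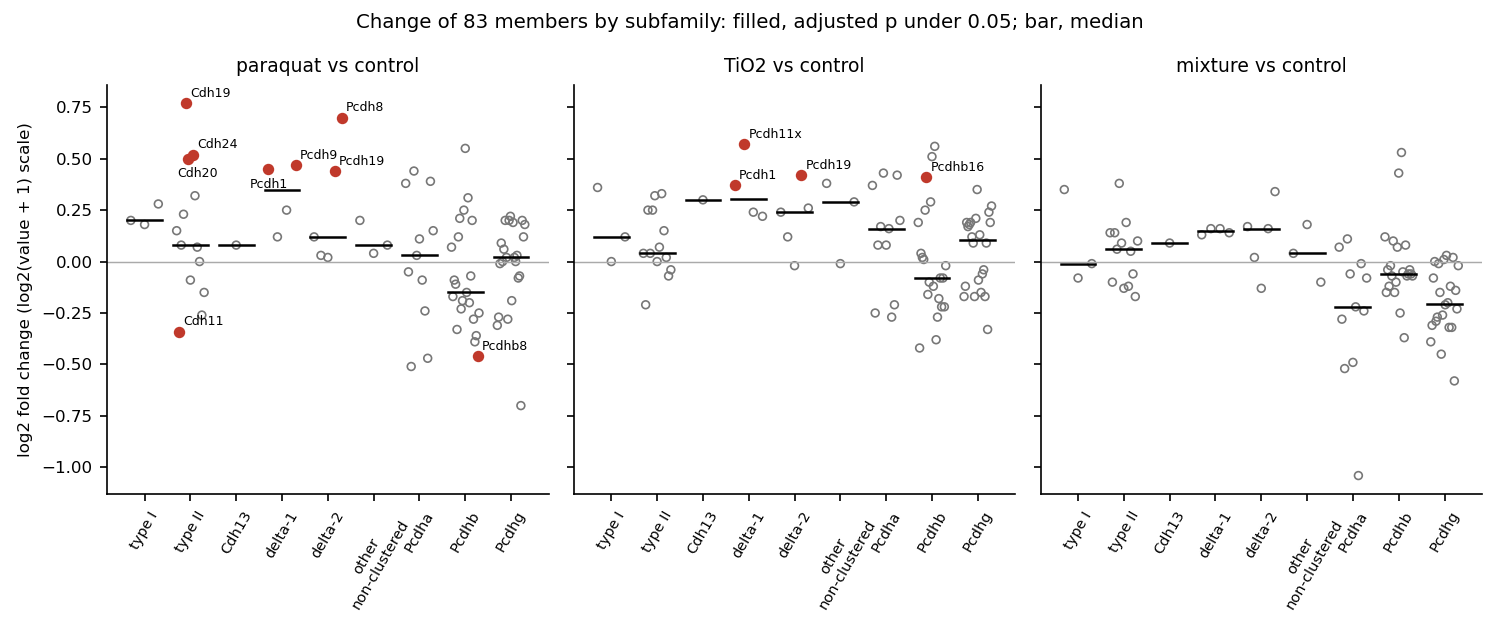
Log2 fold change of each of the 83 genes against control for paraquat, TiO2 and the mixture, by subfamily; filled points passed an adjusted p of 0.05, and bars are medians. The 9 calls after paraquat and 4 after TiO2 lie mostly in the type II, delta-1 and delta-2 groups, and none passed after the mixture.

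The third comparison, the mixture against control, gave no call among the 83 members with limma (0%, against 1.19% of all genes tested), and none with edgeR (against 1.07%) or DESeq2 (against 2.2%). At an unadjusted p under 0.05 there were 12 members, or 14.5%, against 12.2% of all genes. All 12 are clustered protocadherins, and 11 of them were lower. Of the 54 clustered genes 42 had negative log2 fold changes, with a median of −0.09, while 20 of 29 non-clustered genes were positive, with a median of 0.09. In the Pcdhg cluster 18 of 22 and in the Pcdha cluster 9 of 11 were negative, with medians of −0.20 and −0.22, against −0.01 over all genes tested. Genes of these clusters share exons and were measured in the same libraries, so such counts are not counts of independent observations. By ranges, 3 members (3.61%, against 3.37% of all genes) had all mixture libraries below all controls, and 0 had them above, against 4.38%.

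Those 3 were Pcdhb20, Pcdhga10 and Pcdhgb6, named after their values were seen. Pcdhga10 had 210, 205, 215 and 232 normalised reads after the mixture, against 269, 254, 295 and 257 in controls. Pcdhgb6 had 97, 83.5, 92.6 and 92.5 after the mixture, against 110, 114, 117 and 117 in controls. Both were lower without overlap, at log2 fold changes of −0.31 and −0.32 that did not pass. The largest changes without a call were −1.04 ± 0.38 for Pcdha7, −0.58 ± 0.27 for Pcdhgb8 and 0.53 ± 0.18 for Pcdhb21 on the log2 scale. Pcdha7 had 9.9, 2.17, 7.28 and 13.4 normalised reads after the mixture, against 13.5, 20.6, 16 and 12.8 in controls, a level at which mixture 2 rests on 2 reads. Without mixture 4, Pcdhga1 passed with limma (log2 fold change −0.50, adjusted p = 0.0457).

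None of the members called after a single exposure passed after the mixture. Pcdh9 had 1034, 1194, 1198 and 1138 normalised reads after the mixture, and its log2 fold change of 0.14 ± 0.07 did not pass (limma adjusted p = 0.457). Pcdh1 had 774, 725, 854 and 759 (0.13 ± 0.09), Pcdh19 had 289, 356, 337 and 417 (0.16 ± 0.11) and Cdh20 had 132, 190, 183 and 151 (0.09 ± 0.11). Pcdh11x had 664, 881, 636 and 770 (0.16 ± 0.12). In all 5 the mixture overlapped the controls. The myelin list had 0 of 11 and the cortical glutamatergic list 0 of 12 genes called, although 9 of the 12 cortical genes lay above all controls after the mixture and their sum was 4356 to 6077 after the mixture and 2440 to 3779 in controls. Of 5 genes of meninges and fibroblasts 1 rose after the mixture, the collagen gene Col1a1 (log2 fold change 0.80 ± 0.17, limma adjusted p = 0.0206), and the sum of that list was 366 to 491 after the mixture and 255 to 379 in controls. None of 14 medium spiny neuron genes was called, but their sum was 85005 to 98435 after the mixture and 99230 to 108120 in controls, without overlap. Over all genes tested 1.19% passed after the mixture and 4.38% lay above all controls. The part of these markers in the members' values was not tested.

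Summed over the cluster, the Pcdhg genes reached 5320 to 5644 normalised reads after the mixture, below every other library. The sums were 6191 to 6741 after paraquat, 6205 to 7217 after TiO2 and 5693 to 6252 in controls. The mean was 5453 ± 137 after the mixture and 6029 ± 244 in controls (SD, n = 4 each). Pcdhgc3 and Pcdhgc5 hold more than other genes of this sum. The Pcdha sum was 412 to 529 after the mixture and 507 to 531 in controls, which overlap, and the Pcdhb sum was 2212 to 2542 after the mixture and 2181 to 2632 in controls. The gap in the Pcdhg sum stayed with upper-quartile scaling (5329 to 5652 after the mixture, 5735 to 6355 in controls) and as shares of each library's reads (561 to 592 per 1000000 reads after the mixture, 609 to 665 in controls). These sums were chosen with the results known and are given with no test.

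**Figure D4:**
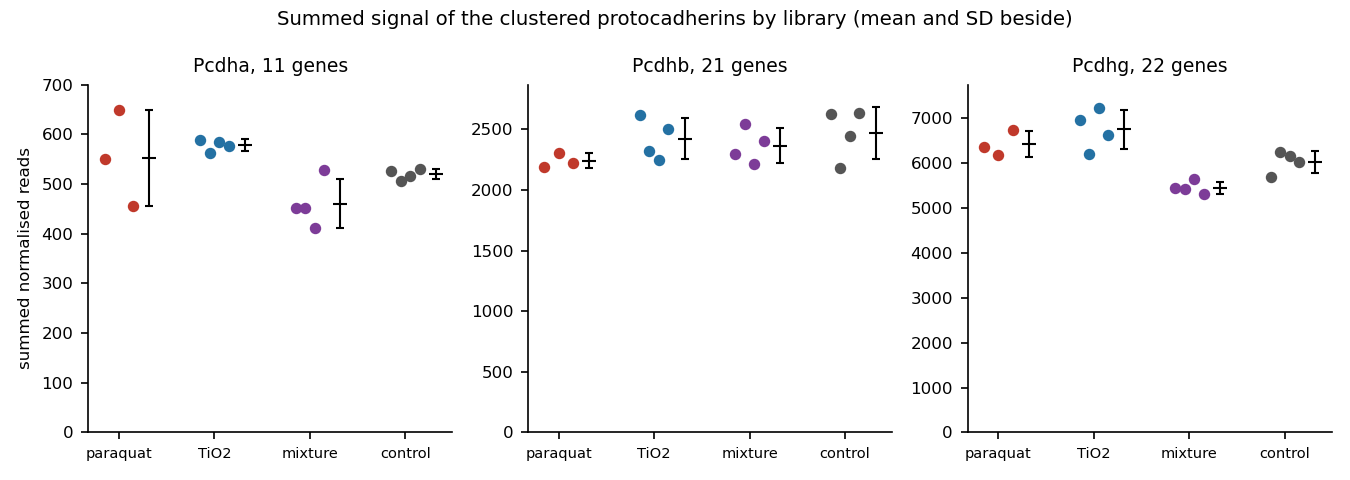
Summed normalised reads of the Pcdha, Pcdhb and Pcdhg genes in each library (points), with group mean and SD. The 4 mixture libraries of the Pcdhg cluster (5320 to 5644) lie below all others, while the Pcdhb sums overlap between mixture and control.

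Between exposures no member passed with limma. For the mixture against paraquat 0 of 83 did (background 0.00643% of all genes), for the mixture against TiO2 0 of 83 and for paraquat against TiO2 0 of 83 (background 0% in both). The counts at an unadjusted p under 0.05 were 19, 24 and 9 members, or 22.9%, 28.9% and 10.8%, against 14.4%, 11.4% and 6.41% of all genes tested, in that order of comparisons. The median log2 difference of the members was −0.12 for the mixture against paraquat, −0.11 for the mixture against TiO2 and −0.08 for paraquat against TiO2. By ranges, 14 members (16.9%, against 3.43% of all genes) had all mixture libraries below all TiO2 libraries, 6 of them Pcdhg genes, and 1 (1.2%, against 3.28%) above. Against paraquat 10 members (12%, against 6.61%) lay below and 4 (4.82%, against 7.17%) above. Between paraquat and TiO2, 5 members (6.02%, against 2.94%) were above and 1 (1.2%, against 2.87%) below. All 22 Pcdhg genes had a lower mean log2 level after the mixture than after TiO2, with a median of −0.25 on the log2 scale, against −0.00 over all genes. Pcdhg genes share exons and were measured in the same libraries, so these genes are not independent observations. The edgeR test called 0 members in each of the 3 (background 0.00643%, 0% and 0%). DESeq2 called 4 of 44 members with an adjusted p for the mixture against paraquat (9.09%, against 1.4% of all such genes), 1 of 41 for the mixture against TiO2 (2.44%, against 0.649%) and 0 of 81 for paraquat against TiO2 (against 0.0614%). With DESeq2 those lower after the mixture than after paraquat were Cdh5, Pcdh1, Pcdh9 and Pcdhgc3, and Pcdhgc3 was lower than after TiO2 (log2 difference −0.39, adjusted p = 0.00917).

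The interaction asked whether the mixture differs from the sum of both single exposures, as the mixture's log2 difference from control less those of paraquat and of TiO2. Among the 83 members 14 passed with limma, which is 16.9%, against 11.8% of all genes tested. Of these 12 were negative (14.5%, against 6.36%) and 2 positive (2.41%, against 5.41%). A negative value says that the mixture lay below the sum of the single changes. The median interaction was −0.21 over the members and −0.00 over all genes. The single-exposure changes and the interaction share the same control libraries and are not independent of each other. Markers of other cells also had negative interactions, against 6.36% of all genes tested. Of 11 myelin genes 6 passed (median −1.05), of 8 genes of oligodendrocyte precursors 5 (−0.63) and of 8 of astrocytes 3 (−0.38). The cortical, microglia, meningeal and interneuron lists had 1 gene each, which says little about those lists. Of 14 medium spiny neuron genes 3 had positive and 1 a negative interaction. Their part in the members' values was not tested.

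Pcdh1 had an interaction of −0.69 ± 0.13 (limma adjusted p = 0.00199), Pcdh9 of −0.55 ± 0.11 (0.00294) and Cdh20 of −0.73 ± 0.16 (0.00696). In these 3 both single exposures were above control, and the mixture was 0.13, 0.14 and 0.09 above it on the log2 scale, in that order. Pcdh19 followed with −0.70 ± 0.17. Cdh5, or VE-cadherin, which joins endothelial cells, had an interaction of −0.77 ± 0.17 with a limma adjusted p of 0.00608. It had 253, 231 and 327 normalised reads after paraquat, 253, 270, 297 and 261 after TiO2, and 204, 219, 205 and 166 after the mixture, against 203, 243, 229 and 189 in controls. The mixture libraries of Cdh5 were below all libraries of the single exposures and overlapped the controls. Of 11 endothelial marker genes none passed in any exposure against control, where Cdh5 did not pass either. In the interaction none of the 11 passed, with a median of 0.11 and a range of −0.38 to 0.34 on the log2 scale. Their sum was 2151 to 2731 after paraquat, 2325 to 2544 after TiO2, 2176 to 2649 after the mixture and 2243 to 2675 in controls. Whether these markers bear on Cdh5 was not tested.

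Pcdhgc3, a C-type isoform that promotes dendritic branching, had an interaction of −0.58 ± 0.12 (limma adjusted p = 0.00572). It had 2019, 1812 and 2318 normalised reads after paraquat, 1999, 1886, 2447 and 2119 after TiO2 and 1654, 1565, 1654 and 1577 after the mixture, against 1635, 1869, 1861 and 1762 in controls. The mixture was below all libraries of both single exposures. The other clustered genes with a negative interaction were Pcdhga7, Pcdhgc5, Pcdhac1, Pcdhgc4, Pcdhb19 and Pcdhb16, from −0.47 for Pcdhgc5 to −1.06 for Pcdhac1. Pcdhac1, a C-type alpha isoform, was low, with 31.8, 37.5 and 33.6 after paraquat, 39.4, 34.6, 39.1 and 27.8 after TiO2 and 16.8, 19.5, 26 and 25.7 after the mixture, against 23.8, 26.8, 24.5 and 28.5 normalised reads in controls. Positive were Cdh11 at 0.45 ± 0.13 and Pcdhb8 at 0.62 ± 0.19, both of which had fallen after paraquat. The calls of Cdh20, Cdh5, Pcdh1, Pcdh19, Pcdh9, Pcdhac1, Pcdhga7 and Pcdhgc3 held in all alternatives, and the others were lost in at least 2. With the GC trend removed the interaction of Pcdh1 was −0.40 and that of Pcdhgc3 −0.41, both still called, while Pcdhgc5 at −0.29 and Cdh11 at 0.29 were not, and Pcdhb19 was at −0.73; without TiO2 2 the interaction had 9 calls.

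**Figure D5:**
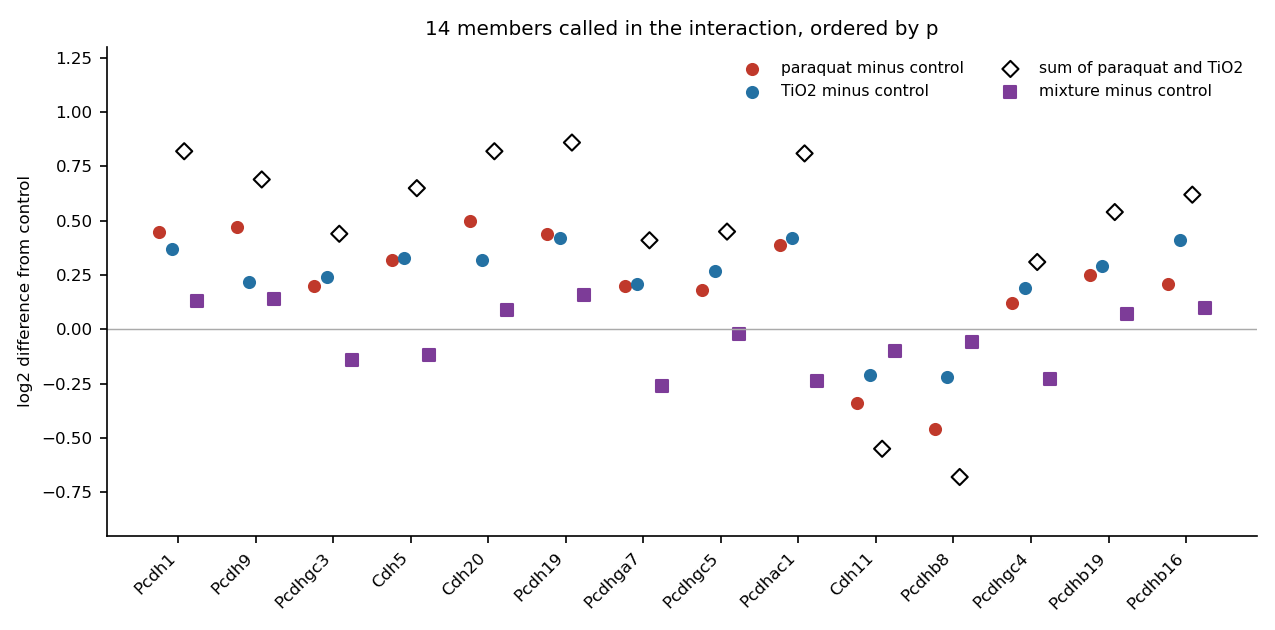
Log2 difference from control of paraquat, TiO2 and the mixture (filled symbols), and the sum of both single exposures (open diamonds), for the 14 members whose interaction passed. In 12 the mixture lies below the sum; Pcdh1 is at 0.45 after paraquat, 0.37 after TiO2 and 0.13 after the mixture.

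The partners of cadherins were taken from lists set up for this description. Over all genes tested, 6.34% were higher and 4.06% lower at the same threshold after paraquat, and 4.3% and 2.1% after TiO2. Of 10 tested catenins and junction adaptors, Jup (plakoglobin) rose and Ctnnb1 (beta-catenin) fell after each single exposure, and none passed after the mixture. Jup averaged 425 ± 14.2 after paraquat, 359 ± 45.1 after TiO2 and 333 ± 45.6 after the mixture, against 281 ± 32.1 normalised reads in controls. Ctnnb1 averaged 3430 ± 182 after paraquat, 3563 ± 363 after TiO2 and 4052 ± 301 after the mixture, against 4280 ± 48.8 in controls (SD, n = 3, 4, 4 and 4). The limma adjusted p was 0.00233 and 0.0478 for Jup, and 0.0157 and 0.0312 for Ctnnb1, after paraquat and TiO2 in that order. The median log2 fold change of the 10 genes was 0.01 (paraquat), 0.00 (TiO2) and 0.05 (mixture).

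Of 14 other genes of the cadherin superfamily 2 rose after paraquat, none after TiO2 or the mixture. They are Clstn1, a calsyntenin of axonal transport, at 0.41 ± 0.09, and Celsr2, a planar polarity cadherin, at 0.35 ± 0.09 on the log2 scale. Of 13 intracellular partners of protocadherins, Nckap1, the WAVE complex subunit bound by Pcdh10, fell by 0.36 after paraquat and by 0.40 after TiO2 on the log2 scale. Its means were 3602 ± 242 after paraquat, 3524 ± 401 after TiO2 and 4169 ± 119 after the mixture, against 4626 ± 212 normalised reads in controls. Wasf1, the WAVE subunit that activates actin branching, rose by 0.46 ± 0.12 after TiO2. Of 12 genes of cluster promoter choice, the cohesin loader Nipbl rose (0.43 after paraquat, 0.51 after TiO2) and the cohesin subunit Stag1 fell (−0.43 after paraquat, −0.42 after TiO2), while Ctcf did not pass. Of 7 genes of cadherin cleavage, Ncstn, a subunit of gamma-secretase, rose by 0.37 after paraquat and 0.41 after TiO2. None of the genes in these lists passed after the mixture, where 1.19% of all genes tested did. Over all genes tested 6.34% rose and 4.06% fell after paraquat, and 4.3% and 2.1% after TiO2. With lists of 7 to 14 genes, 1 or 2 calls are no result about a list.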

How the data were processed

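Per the labels' protocols, striatal RNA was isolated with a NucleoSpin kit, a Lexogen SENSE kit for total RNA gave the libraries, and a NextSeq500 sequenced them. The authors deposited 1 table of normalised signal for 15569 genes by 15 libraries, read counts divided by a size factor per library. This was read from the values: within 0.001, 100% of them were whole multiples of the worth of 1 read, and recovery of reads is claimed for 11 libraries, the step of the other 4 (paraquat 1, TiO2 3 and 4, mixture 1) being near 1. The submitters' processing notes name Bowtie2, DESeq2 and mm10. For counter, annotation, filter and strand use the sources used here give nothing. Reads of Cdh8, Cdh9, Pcdh7, Pcdh8, Pcdh10, Pcdh19, Pcdha6, Pcdha12, Pcdhb12 and some Pcdhg genes may therefore include those of an antisense gene.

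Symbols were matched to GENCODE M21 on GRCm38 for exonic length, GC content and coordinates. With filterByExpr (edgeR 4.0.16) 15556 genes were kept. They were tested with limma 3.58.1, run in R 4.3.3 with trend and robust options, on log2(value + 1), all 15 libraries in a single fit with a mean per group, and a call was a Benjamini-Hochberg adjusted p under 0.05 over all genes tested. Fold changes on this scale understate the change of low genes. The edgeR quasi-likelihood test on recovered reads called 1813 (paraquat), 996 (TiO2) and 166 (mixture) genes, against 1617, 996 and 185 with limma. The fits were tried on simulated counts that changed in paraquat alone and held no GC trend or sex difference. The GC correction was tried apart, on a simulated GC trend. The outcomes are not given here. Genes were named if called against control, or if called in another comparison and among the 5 smallest p there. Also named were the 3 largest changes without a call, the 3 highest and 3 lowest levels, and a set list of well-known members. Members, lists and tests were chosen with earlier results of these data known. The main fit used no replicate block, since the labels give no litter or batch. Of 21 same-numbered pairs of libraries 8 had a correlation over 0.1, in a range of −0.186 to 0.271. That lies within the range of the other pairs, −0.338 to 0.337. A term for sex, set by Xist, was added after seeing the data.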

Additional observations from a re-analysis of the deposited data

Results flagged for a closer look

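In groups of 4 libraries, 4 values of single members stood apart from the other 3 of their group. Chance gives about 1 in 20 groups, and 99 groups were examined. Cdh24 had 132 normalised reads in control 3, against 80.6 to 83.6 in the other controls, and this control lies inside the range of the paraquat libraries. Pcdha1 had 14.1 in mixture 2, against 9.25 to 9.9 in the other mixture libraries. Pcdh7 had 1301 in mixture 2, against 1077 to 1103. Pcdhb19 had 188 in TiO2 3, against 172 in each of the others.

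For 14 members the effect of adding TiO2 differed with and without paraquat, tested as the interaction in limma. On the log2 scale it was −0.69 for Pcdh1, −0.55 for Pcdh9, −0.73 for Cdh20, −0.70 for Pcdh19, −0.77 for Cdh5 and 0.45 for Cdh11. In the clusters it was −0.58 for Pcdhgc3, −0.66 for Pcdhga7, −0.47 for Pcdhgc5, −1.06 for Pcdhac1, −0.54 for Pcdhgc4, −0.48 for Pcdhb19, −0.52 for Pcdhb16 and 0.62 for Pcdhb8. The adjusted p of Pcdhb16 (0.0495), Pcdhb19 (0.0474), Pcdhgc4 (0.0428) and Pcdhb8 (0.041) lay close to the threshold.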

How the results depend on the processing

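Of the 9 members called for paraquat, 5 were called when only the groups compared entered the fit (6.02%, against 7.82% of all genes). Leaving out single libraries gave 2 to 10 calls. With GC correction paraquat had 7 calls (8.43%, against 7.73% of all genes), of which 4 were among the 9. The added ones were Cdh2, Pcdh7 and Pcdhb19. Block and GC correction together gave 9 calls (10.8%, against 7.96%), 5 of them among the first 9. The 4 calls for TiO2 became 7 with DESeq2, 7 with GC correction, 9 with the replicate block, 11 with the block and GC correction (13.3%, against 6.77% of all genes) and 8 with a term for sex, and without single libraries 2 to 6. For the mixture the 0 calls became 1 without mixture 4, and 0 to 1 is the range over libraries left out. The mixture against paraquat had 4 calls with DESeq2, 1 with GC correction (against 0.045% of all genes) and 1 with block and GC correction (against 0.0321%) in place of 0. The mixture against TiO2 had 1 with DESeq2 and 2 with block and GC correction (against 0.129%) in place of 0. The 14 interaction calls ranged from 9 to 18 without single libraries. With GC correction the interaction had 15 calls (18.1%, against 7.21% of all genes), 10 of them among the 14. With the replicate block, paraquat had 8 calls and the interaction 15. Correlations of same-numbered libraries lay within the range of the other pairs. In no alternative did a called member change sign. Over all genes the counts ran from 665 to 1936 for paraquat, 467 to 1397 for TiO2, 52 to 404 for the mixture and 882 to 2313 for the interaction. The cause of these shifts was not tested. Members under about 20 normalised reads, such as Pcdha1, Pcdha7 and Cdh15, rest on as few as 2 reads in a library, and changes there were not detectable at this depth unless large.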
